A study of Mus musculus with 9 samples.

Results

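The genes described here are the 4 mouse Notch receptors (Notch1, Notch2, Notch3 and Notch4), 3 of their canonical ligands (Jag1, Jag2 and Dll4), the target genes Hey1 and Heyl, and Dner, a transmembrane protein with EGF-like repeats that has been described as a further Notch ligand. The list was chosen on the measured level of Dner, which was much lower after CaCl2 than in sham on these same arrays, and its 10 genes were then found by name. They were read by 12 of the 55681 probes of the array, and all 10 were among the 16710 genes tested. Both comparisons against sham are therefore a description of these 10 genes, and no p-value is given for them there.

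The samples were abdominal aortas of uMT mice, a B cell-deficient genotype, on the C57BL/6 strain, and every group carried that genotype. In the sham group (uMT_sham, 3 arrays) saline was put around the aorta, and in the CaCl2 group (uMT_Ca, 3 arrays) 0.5 M CaCl2 was put there instead, which is used to produce abdominal aortic aneurysm. In the last group (uMT_Ca+IgG, 3 arrays) mice treated with CaCl2 were also injected in the peritoneum with polyclonal IgG of mouse. Aortas were taken 7 days after CaCl2. When sham aortas were taken, and the age of the mice, the sources used here do not say. Since the labels do not say that replicates were separate animals, the spread behind each p-value is that among these samples and may be technical. The whole aortic piece was sampled, and in such bulk RNA fewer cells of a type and less RNA per cell cannot be told apart.

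Notch receptors are single-pass proteins that are cut in response to ligands on a neighbouring cell. An ADAM protease removes the outer part, gamma-secretase then frees the intracellular domain, and this domain enters the nucleus and joins the DNA-binding protein RBPJ and a Mastermind coactivator to switch on genes of the Hes and Hey families. In arteries Notch1, Notch4, Dll4 and Jag1 are known from the endothelium, and Notch3, Notch2, Jag1 and Heyl from smooth muscle and pericytes. Dner is best known from neurons, above all the Purkinje cells of the cerebellum.

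Each value below is a level on the log2 scale, the processed signal of a probe relative to the 75th percentile of its array, so that a difference of 1 is a doubling. A gene was called changed at a Benjamini-Hochberg adjusted p of 0.05 in limma, with the adjustment made over all genes tested. From 54.9% to 59.9% of the probes on an array passed as well above background, and the 75th percentile itself was 267 to 302 signal units in sham, 381 to 496 with CaCl2 and 270 to 455 with IgG. Scaling to the median in place of the 75th percentile moved the median difference of all genes between CaCl2 and sham from -0.08 to 0.39. Signs among the 10 genes that turn with this scaling are named below. Replicate 3 of CaCl2 plus IgG stood apart from the other arrays, with -75.5 on the second principal component where the other 8 lay between 0.77 and 16.0. The smooth muscle markers (10 genes) were well above background in every group and the endothelial markers (11 genes) too. Cd79b, a part of the B cell receptor that a B cell-deficient mouse should have little of, was higher with CaCl2 than in sham by 2.39 ± 0.44 (adjusted p = 0.00505 in limma) and was well above background in all 3 groups. Of the 5 B cell markers looked up, 2 were called higher with CaCl2 and 3 did not pass, where 17.3% of all genes were called higher. The mean difference was positive for 4 of the 5 and negative for 1.

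The results below turn on what single probes read, and for Notch1, Notch2 and Rbpj on pairs of probes that did not read alike. The first 30 of the 60 bases of each such probe are shown, 5′ to 3′, as the scanner files give them, because a reader needs them to see which stretch of each transcript was measured.
Dner probe: gtgcttcttatgattcttgctaatttcaaa
Dll4 probe: tttgcccagactccatcctcacagctgggc
Notch1 brighter probe: tcctgcagtggagggggccttgagacaggc
Notch1 dimmer probe: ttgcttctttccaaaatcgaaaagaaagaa
Notch2 brighter probe: ccacttgaagtcttgcatagaaatgaacca
Notch2 dimmer probe: tcttcaccacactctgcatctgactggtca
Rbpj brighter probe: tttgtagaaaaaggaatctgctcaattcca
Rbpj dimmer probe: acacaaacagcgaggggaattacacaaatg

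Per the files, in build mm9, the whole Dner probe lies at chr1:84366416-84366475 on the minus strand and the Dll4 probe at chr2:119160779-119160838 on the plus strand. The brighter Notch1 probe lies at chr2:26319440-26319499 and the dimmer at chr2:26314630-26314689, both on the minus strand, so that the dimmer lies downstream along the transcript, with 4750 bases between them. The dimmer Notch2 probe lies at chr3:97951233-97951292 and the brighter at chr3:97953914-97953973, both on the plus strand, and here the brighter lies downstream with 2621 bases between. The dimmer Rbpj probe, at chr5:54044777-54044836, lies upstream of the brighter, at chr5:54048503-54048562 on the plus strand, by 3666 bases. The GC content was 55.0% in the brighter Notch1 probe and 40.0% in the dimmer, and for Notch2 it was 41.7% in the brighter and 55.0% in the dimmer. No annotation of that build was used here, so the exon that holds each probe is not given.

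Among the receptors, Notch1 read higher on average after CaCl2 and Notch2, Notch3 and Notch4 lower, none of them called on the brightest probe. For Notch2 the size of the difference depended on the probe. Notch1, the receptor known from endothelium and from lymphocytes, read -0.13, 0.13 and 0.81 in sham, 0.93, 0.68 and 1.60 with CaCl2, and 1.11, 0.61 and 1.11 with IgG. Sham replicate 3 lay above the lowest array of each CaCl2 group, so the groups overlapped. The mean difference from sham was 0.80 ± 0.31 (SE, n = 3 per group) for CaCl2 and 0.68 ± 0.31 for CaCl2 plus IgG, and neither was called. Row 1 of the slides held 3 CaCl2 arrays, 1 array of CaCl2 plus IgG and, on another slide, 1 sham array. Within row 1 the CaCl2 difference from sham was 0.26. Within row 2, with 2 arrays each of sham and CaCl2 plus IgG, the difference with IgG was 0.86. Without sham replicate 3, the only array on its slide, the CaCl2 difference was 1.07 and was called, as it also was with median scaling (1.27) and with the normexp background correction (0.77). On 0 of 9 arrays was the dimmer Notch1 probe well above background, so it gave no reading to set against the brighter. On the same arrays 5 of 7 T cell markers were called higher in each CaCl2 group than in sham, beside 17.3% and 14.6% of all genes. The median differences of the T cell markers were 3.02 for CaCl2 and 2.79 with IgG. Their summed level was 2.53 to 3.24 in sham, 9.12 to 18.3 with CaCl2 and 8.69 to 12.3 with IgG, and the part of T cells in the Notch1 values was not tested.

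Notch2, a receptor of smooth muscle and many other cells, read 3.21, 2.76 and 2.78 in sham, 2.62, 2.83 and 2.79 with CaCl2, and 2.72, 2.86 and 2.81 with IgG on its brighter probe. All 9 arrays lay close together, and the difference from sham was -0.17 ± 0.15 for CaCl2 and -0.12 ± 0.15 with IgG, both turning positive under median scaling (0.30 and 0.12). The dimmer Notch2 probe, well above background on all 9 arrays, read -3.00, -2.45 and -2.41 in sham, -3.78, -4.17 and -4.10 with CaCl2, and -3.92, -3.62 and -2.98 with IgG. On this probe all 3 CaCl2 arrays lay below all 3 sham arrays, by -1.40 ± 0.29 in the mean, while the difference with IgG was -0.89 ± 0.29, with replicate 3 of that group just above the lowest sham array. The pair of Notch2 probes thus had the same sign and unequal size, and the mean of the pair gave -0.78 for CaCl2 against sham, and -0.50 with IgG, both called, where the brighter probe alone was called in neither. Signals of the dimmer probe were between 22.1 and 55.3 units, near the lowest signals that were well above background (12.6 to 16.6 units), and those of the brighter probe between 1835 and 3309 units.

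Notch3, the receptor that marks arterial smooth muscle and pericytes, read 3.22, 2.68 and 3.34 in sham, 2.66, 3.14 and 2.46 with CaCl2, and 2.89, 2.95 and 2.68 with IgG. The groups overlapped, with differences from sham of -0.33 ± 0.23 and -0.24 ± 0.23, the former turning to 0.14 under median scaling. On the same arrays 10 of 10 smooth muscle markers were called lower with CaCl2, where 19.1% of all genes were, with a median difference of -2.15. Their summed linear level was 2627 to 3013 times the 75th percentile in sham, 810 to 1306 with CaCl2 and 890 to 1215 with IgG. Of 6 pericyte markers 3 were called lower with CaCl2, Cspg4 by -1.63 ± 0.20, Rgs5 by -1.56 ± 0.22 and Abcc9 by -0.73 ± 0.19. The other pericyte markers did not pass, with Kcnj8 at -0.23 ± 0.28, Higd1b at 0.32 ± 0.30 and Ndufa4l2 at 0.34 ± 0.34, and the median of the 6 was -0.48. The part of these cells in the Notch3 values was not tested.

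Notch4, a receptor found mostly in endothelium, read 0.63, 1.15 and 1.09 in sham, 0.62, 0.33 and 0.33 with CaCl2, and 0.58, 1.03 and 0.30 with IgG. The highest CaCl2 array lay just below the lowest sham array, while the second array with IgG lay among the sham arrays. The differences from sham were -0.53 ± 0.22 for CaCl2 and -0.32 ± 0.22 with IgG, neither called, and under median scaling the former was only -0.06.

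**Figure D1:**
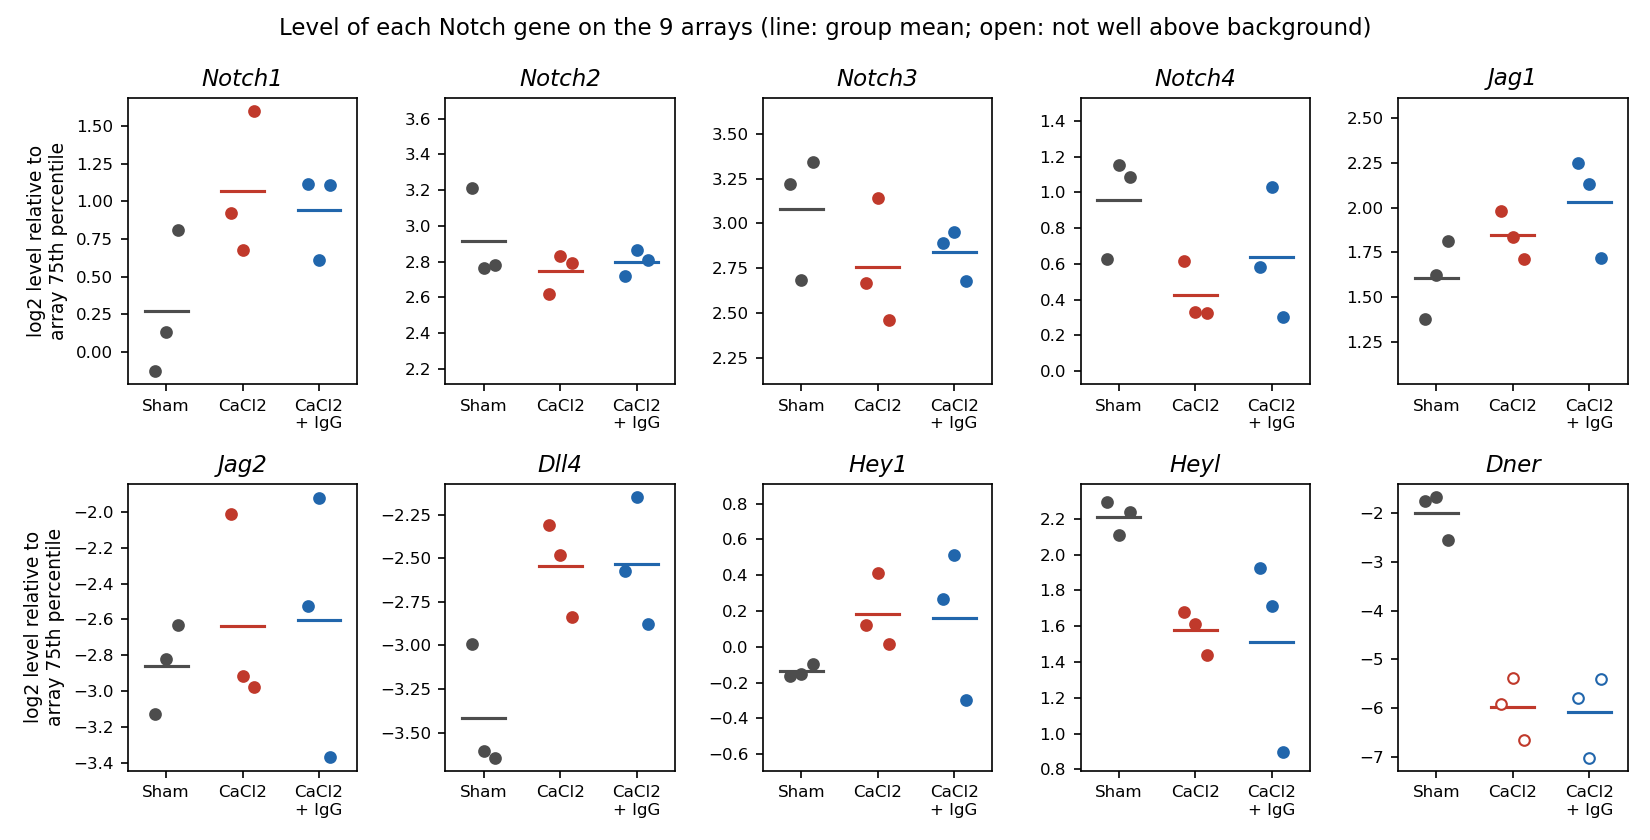
Level of each of the 10 genes on each array, as log2 signal relative to the 75th percentile of the array, with each panel on its own axis. Points are the 3 arrays of sham, CaCl2 and CaCl2 plus IgG, lines are group means, and open points (Dner after CaCl2) were not well above background. Dner fell from between -2.54 and -1.67 in sham to -5.38 or lower in the other groups, and Dll4 arrays of both CaCl2 groups lay above all sham arrays.

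Of the ligands, Dll4 was higher in both CaCl2 groups than in sham, and Jag1 and Jag2 were not separated between groups. Dll4, the ligand of arterial endothelium and of sprouting tip cells, read -2.99, -3.61 and -3.64 in sham, -2.31, -2.48 and -2.83 with CaCl2, and -2.58, -2.15 and -2.88 with IgG. All 6 arrays of the CaCl2 groups lay above all 3 sham arrays. The difference from sham was 0.87 ± 0.25 for CaCl2, 1.83-fold, and 0.88 ± 0.25 with IgG, 1.84-fold, and both were called.

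These Dll4 readings were dim, from 21.4 to 34.0 signal units in sham and from 36.7 to 102 in the CaCl2 groups. With the normexp background correction, which adds an offset of 50 units to every signal, the differences were 0.03 and 0.17 and neither was called. The CaCl2 call was also lost without sham replicate 2 (0.78), sham replicate 3 (0.76), CaCl2 replicate 1 (0.75) or CaCl2 replicate 2 (0.84) and with the slide row as a block (1.01), and that with IgG was lost with median scaling (1.12), with no filter on dim probes or a trended robust variance (0.88 in each), and without sham replicate 2 (0.78), sham replicate 3 (0.76), or replicate 1 (0.90) or 2 (0.69) of CaCl2 plus IgG. Beside Dll4, of 11 endothelial markers 4 were called higher with CaCl2 and 2 lower, where 17.3% and 19.1% of all genes were. Among these markers were Cldn5 at 2.28 ± 0.36 and Vwf at -0.80 ± 0.14. The median difference of the 11 was 0.05. Their summed level ranged from 93.3 to 119 in sham, 81.0 to 91.6 with CaCl2 and 78.4 to 105 with IgG, but Vwf alone made up 67.5% to 68.9% of the sum in sham. Without Vwf the sum went the other way with CaCl2, from 29.1 to 38.2 in sham to 43.0 to 48.7, and was 33.0 to 55.1 with IgG. The arterial marker Gja5, a connexin, was lower with CaCl2 by -1.07 ± 0.16, the single call among 6 arterial markers, and the part of these cells in the Dll4 values was not tested.

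Jag1, a ligand of endothelium and smooth muscle, read 1.38, 1.62 and 1.81 in sham, 1.98, 1.84 and 1.72 with CaCl2, and 2.25, 2.13 and 1.72 with IgG. Sham replicate 3 lay above the lowest array of each CaCl2 group, and the differences from sham were 0.24 ± 0.18 and 0.43 ± 0.18. Without replicate 3 of CaCl2 plus IgG the latter was 0.58 and was called. Jag2 read between -3.13 and -2.63 in sham, -2.98 and -2.01 with CaCl2, and -3.37 and -1.92 with IgG. The Jag2 ranges overlapped in all groups, with differences of 0.23 ± 0.39 and 0.26 ± 0.39, and with normexp the former was -0.09.

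The target genes went apart, with Heyl lower and Hey1 slightly higher in the means of both CaCl2 groups. Heyl, a basic helix-loop-helix repressor of mural cells, read 2.29, 2.11 and 2.24 in sham, 1.68, 1.61 and 1.44 with CaCl2, and 1.92, 1.71 and 0.90 with IgG. All 6 CaCl2-treated arrays lay below all 3 sham arrays, and replicate 3 of CaCl2 plus IgG was the lowest. The difference from sham was -0.63 ± 0.25 for CaCl2, 1.55-fold lower, and -0.70 ± 0.25 with IgG, and neither was called. Without replicate 3 of CaCl2 plus IgG, which widens the shared estimate of the spread, the CaCl2 difference was called at the same -0.63, and the difference with IgG was -0.39. The latter was called without replicate 1 of that group (-0.91) and with a trended robust variance (-0.70). Under median scaling the CaCl2 difference was -0.16. The smooth muscle markers given beside Notch3 fell on the same arrays, and their part in the Heyl values was not tested.

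Hey1, the close relative of Heyl that is known as a target in endothelium, read -0.16, -0.15 and -0.09 in sham, 0.12, 0.41 and 0.02 with CaCl2, and 0.26, 0.52 and -0.30 with IgG. All CaCl2 arrays were above sham, whereas replicate 3 of CaCl2 plus IgG was the lowest of the 9. The differences from sham were 0.32 ± 0.21 and 0.30 ± 0.21 and were not called, and without that array the second was 0.53 and was called. On that array Heyl, Hey1, Jag2 and Notch4 were each at their lowest of all 9.

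Dner, whose fall led to the choice of these genes, was measured clearly in sham aortas and not above background after CaCl2. It read -1.75, -1.67 and -2.54 in sham, -5.92, -5.38 and -6.65 with CaCl2, and -5.79, -7.02 and -5.41 with IgG. In signal units these were 80.5, 95.0 and 45.8 in sham and between 3.51 and 11.1 in the 6 other arrays, all of which were below the level of the dimmest probe well above background on any array, 12.6 units. The probe was well above background on 3 of 3 sham arrays and on 0 of 3 arrays in each CaCl2 group, so the decrease has only a bound. Set against a floor, on each array the higher of the lowest level among probes well above background and the Dner reading itself, Dner was at least 8.51-fold lower with CaCl2 and at least 6.64-fold lower with CaCl2 plus IgG. The measured means differed from sham by -4.00 ± 0.47 and -4.09 ± 0.47, values that depend on how the background was subtracted and that were -1.55 and -1.39 with normexp. Within row 1, whose 1 sham array was on another slide, the CaCl2 difference was -3.44, and within row 2 the difference with IgG was -4.51. Both also rest on background readings after CaCl2 and, since Dner led to the choice, are a description only.

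Of 14 neuronal markers looked up beside Dner, 9 could be tested. With CaCl2 5 were called lower and 1 higher, where 19.1% and 17.3% of all genes were. With IgG 4 were called lower and 1 higher, beside 14.1% and 14.6% of all genes. Both counts of lower genes include Rbfox3, which passed the filter on dim probes only through sham, so nothing is read from them. The median difference of the 9 was -1.04 with CaCl2 and -0.70 with IgG. Their summed level was between 138 and 196 in sham, 35.4 and 80.3 with CaCl2, and 70.7 and 182 with IgG, of which Snap25, a protein of synaptic vesicle release, made up 94.7% to 96.8% in sham. Snap25 was lower with CaCl2 by -1.47 ± 0.46 (adjusted p = 0.0375 in limma). Without it the sum was 6.08 to 7.29 in sham, at most 5.52 with CaCl2 and 4.99 to 5.21 with IgG. Rbfox3, the nuclear protein of mature neurons, was well above background on 3 of 3 sham, 0 of 3 CaCl2 and 1 of 3 CaCl2 plus IgG arrays. It was at least 7.00-fold lower with CaCl2, a bound set as for Dner. No p-value is given for it, since it passed the filter on dim probes only through sham. Th, the enzyme that makes the precursor of noradrenaline in sympathetic nerves, was lower by -0.95 ± 0.27 (adjusted p = 0.0252), and Tubb3, a neuronal tubulin also found in other cells, was higher by 2.75 ± 0.47 (adjusted p = 0.00371). Elavl3, Dbh, Nefl and Nefm passed the filter on dim probes in no group. Of 13 skeletal muscle markers looked up, 7 could be tested. With CaCl2 4 of them were called lower and 1 higher, where 19.1% and 17.3% of all genes were. Mybpc2, Casq1 and Vgll2, all among those called lower, passed the filter on dim probes only through sham, so nothing is read from that count. Among markers of Schwann cells, the glia of peripheral nerves, 5 of 7 tested were called higher with CaCl2 and 6 with IgG. Over all genes 17.3% and 14.6% were called higher. The medians of the Schwann cell markers were 0.93 and 1.14. Their summed level was 7.67 to 8.64 in sham, 15.2 to 18.9 with CaCl2 and 16.8 to 20.7 with IgG. The part of these cell types in the Dner values was not tested.

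The genes whose profiles over the 9 arrays were most like that of Dner, by the root mean square difference of log2 levels centred on each gene's mean, were Col19a1 (0.467), Lsamp (0.489), Mylk4 (0.574), Ptprz1 (0.585) and Rab9b (0.592). Since Dner was well above background on 3 of the 9 arrays, this order rests in part on background readings. Col19a1 encodes a collagen chain, Lsamp an adhesion protein of neurons, Mylk4 a myosin light chain kinase, Ptprz1 a receptor phosphatase of glia and Rab9b a small GTPase. Mylk4, Ptprz1 and Rab9b were well above background on all arrays and were lower with CaCl2 than in sham by -3.66, -3.30 and -3.23. Col19a1 and Lsamp were well above background on 3 of 3 sham arrays but on 1 of 3 CaCl2 and 0 of 3 CaCl2 plus IgG arrays, so no difference is given for them. For Notch3 the nearest profiles were those of Mccc2 (0.113), Plekhh3 (0.115) and Trp53bp2 (0.124), and for Dll4 those of Arhgap42 (0.134), Ubtd1 (0.145) and Smim24 (0.147). The 3 genes nearest to Dll4 were each higher with CaCl2, Arhgap42 by 0.99, Ubtd1 by 1.02 and Smim24 by 0.87. Because nearness was measured on these same arrays, the direction of every gene named here follows from the choice and is no further result.

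Over the 10 genes together, 2 were called in CaCl2 against sham, Dll4 higher and Dner lower, where 36.4% of all genes were called, 17.3% higher and 19.1% lower. Arrays of CaCl2 and sham did not overlap for 5 of the 10 (Notch4, Dll4, Hey1, Heyl and Dner), as was so for 56.6% of all genes. The median difference of the 10 was 0.03, and that of all genes was -0.08. In CaCl2 plus IgG against sham, Dll4 and Dner were again the genes called, beside 28.6% of all genes, 14.6% higher and 14.1% lower. Arrays did not overlap for 3 of 10 (Dll4, Heyl and Dner), against 44.1% of all genes, and the medians were 0.07 for the 10 and -0.10 for all genes. These comparisons share the sham arrays, and since the first of them chose the list nothing is read from the counts. Without replicate 3 of CaCl2 plus IgG, 4 of the 10 were called in CaCl2 plus IgG against sham, beside 6770 of 16710 genes. In CaCl2 against sham 3 were called without that array, beside 7511. The CaCl2 count was 1 without sham replicate 2 or without CaCl2 replicate 1 or 2. All genes called there numbered 4320, 3986 and 5049. The count with IgG was 1 without sham replicate 2 or 3 or without replicate 2 of CaCl2 plus IgG. All genes called there numbered 3311, 3260 and 3003.

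**Figure D2:**
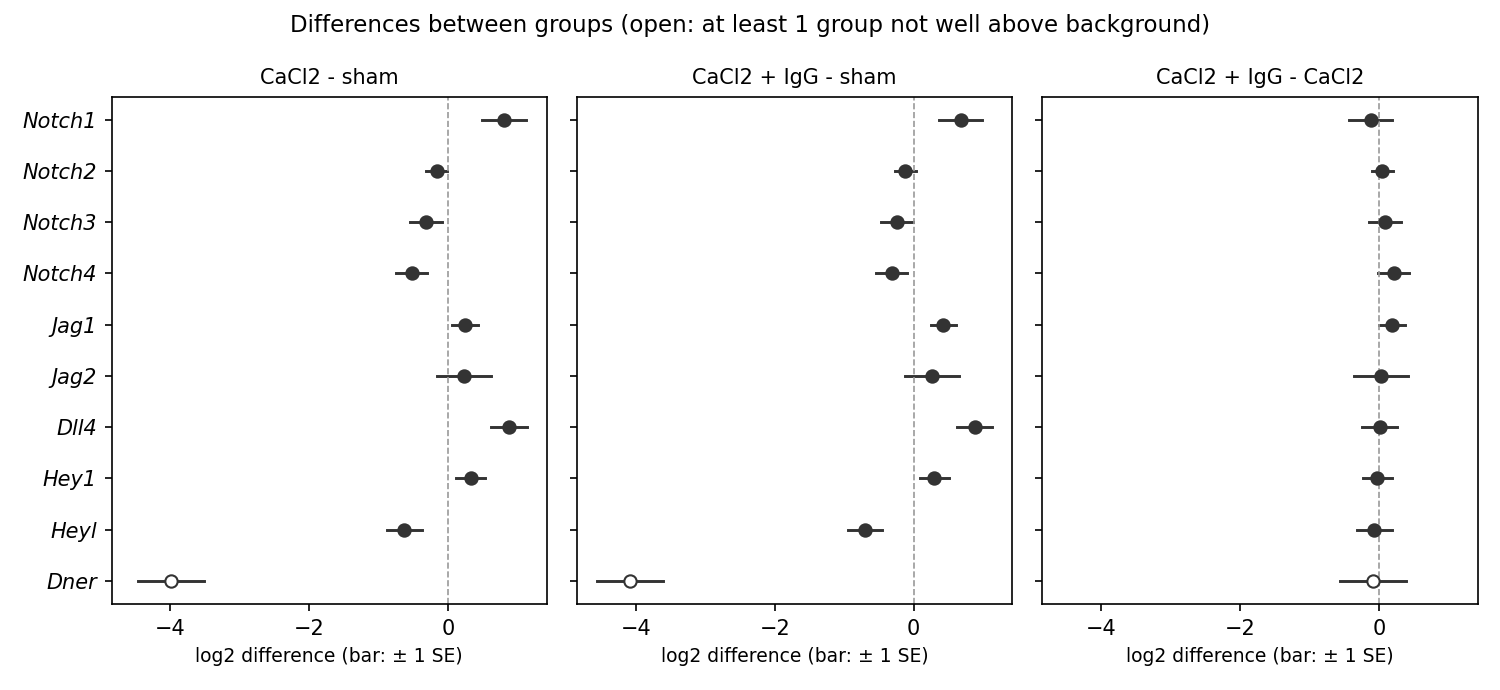
Differences between group means for the 10 genes, in log2 units, with bars of 1 SE from the limma fit and 3 arrays per group. Open points mark Dner, which was not well above background in at least 1 of the groups compared. Dner stands at -4.00 and -4.09 against sham, Dll4 at 0.87 and 0.88, and in the right panel all 10 lie between -0.12 and 0.21.

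The question of the third group was whether polyclonal IgG changes what CaCl2 does in mice without B cells. None of the 10 genes was called between CaCl2 plus IgG and CaCl2, where limma called 0 of 16710 genes, or 0%, at the adjusted threshold and 252 at an unadjusted p of 0.05, none of them among the 10. The choice of the list did not use this comparison. The differences ran from -0.12 for Notch1 to 0.21 for Notch4, with adjusted p = 1.00 for each in limma. Their signs depended on the scaling. Median scaling moved the median difference of all genes here from -0.01 to -0.25, and all 10 were then negative, from -0.36 for Notch1 to -0.02 for Notch4. Notch2, Notch3, Notch4, Jag1, Jag2 and Dll4 thus turned from positive to negative, and 0 of the 10 were called. Dll4 differed by 0.01 with a 95% interval from -0.57 to 0.59, and Heyl by -0.07 from -0.63 to 0.50. Notch2 had the narrowest interval, from -0.30 to 0.40, and Jag2 the widest among genes measured in both groups, from -0.86 to 0.92. Changes within such intervals were not detectable with 3 arrays per group, and Dner, below background in both groups, could not be compared. Arrays of these groups overlapped for all 10 genes, whereas they did not for 5.05% of all genes. Without replicate 3 of CaCl2 plus IgG the differences were 0.18 for Dll4, 0.24 for Heyl, 0.21 for Hey1 and 0.41 for Jag2, and 0 of the 10 were called.

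The rest of the pathway was described by a list of 57 further genes in 7 roles, of which 56 had a probe and 53 were tested. Dll3, Dlk1 and Hes5 were too dim in every group, and no probe was named Aph1c. In CaCl2 against sham 10 rose, 1 fell and 42 did not pass, where 36.4% of all genes were called. The median difference of the 53 was 0.02, beside -0.08 for all genes. In CaCl2 plus IgG against sham 10 rose, 3 fell and 40 did not pass, beside 28.6% of all genes, and between the CaCl2 groups 0 of 53 were called. The count for CaCl2 was 7 without sham replicate 1, 5 without sham replicate 3, 7 without CaCl2 replicate 1, 5 without CaCl2 replicate 3 and 18 without replicate 3 of CaCl2 plus IgG. All genes called in these fits numbered, in that order, 4564, 3915, 3986, 4063 and 7511. The count with IgG was 8, 7 and 6 without sham replicate 1, 2 or 3, and 8 or 4 without replicate 1 or 2 of CaCl2 plus IgG. Here all genes called numbered, in that order, 3659, 3311, 3260, 3379 and 3003.

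Among other ligands, 0 of 6 tested were called in either comparison with sham, where 36.4% of all genes were called with CaCl2 and 28.6% with IgG. Dll1, a canonical ligand, read -0.67, 0.00 and -0.38 in sham, -0.42, -1.53 and -1.38 with CaCl2, and -1.52, -0.67 and -1.60 with IgG. Its first CaCl2 array lay among the sham arrays, and the difference of -0.76 ± 0.36 did not pass (adjusted p = 0.125 in limma), nor did that with IgG, -0.91 ± 0.36 (adjusted p = 0.0890).

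Of 6 genes that add sugars to the receptors, 1 rose in each comparison, Mfng, beside 17.3% of all genes called higher with CaCl2 and 14.6% with IgG. Mfng, one of the Fringe enzymes that set which ligand a receptor answers to, read 1.79, 1.84 and 1.46 in sham, 2.21, 2.33 and 2.39 with CaCl2, and 2.39, 2.51 and 2.08 with IgG. All arrays of both CaCl2 groups were above all sham arrays, by 0.61 ± 0.16 (adjusted p = 0.0209) and 0.63 ± 0.16 (adjusted p = 0.0220 in limma). Its relative Lfng differed by 0.27 ± 0.14 with CaCl2 and did not pass (adjusted p = 0.144). Among 4 genes of ligand endocytosis, 0 were called with CaCl2 and 1 with IgG, the E3 ligase gene Neurl1a, which rose by 0.49 ± 0.14 (adjusted p = 0.0333), and whether this differs from its 0.28 ± 0.14 without IgG was covered by the direct comparison, 0.20 ± 0.14 with adjusted p = 1.00.

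Of 9 tested genes of receptor cleavage, 3 rose in both comparisons and 6 did not pass, where 17.3% and 14.6% of all genes rose. Adam10, the protease that makes the outer cut on receptors bound to ligand, read 2.61, 2.54 and 2.52 in sham, 2.87, 2.89 and 3.15 with CaCl2, and 2.98, 3.14 and 3.02 with IgG. The groups did not overlap, and the differences from sham were 0.42 ± 0.13 (adjusted p = 0.0329 in limma) and 0.50 ± 0.13 (adjusted p = 0.0203). Adam17, a related protease that sheds many surface proteins, rose by 0.55 ± 0.18 (adjusted p = 0.0473), with 1 sham array among the CaCl2 arrays. Psen2, a catalytic subunit of gamma-secretase, rose by 0.62 ± 0.17 (adjusted p = 0.0228), with all 3 CaCl2 arrays, at 2.52 to 2.63, above the highest sham array at 2.20. The macrophage markers rose on the same arrays, 7 of 9 with CaCl2, with summed levels of 29.1 to 83.5 in sham and 208 to 236 with CaCl2, and their part in these rises was not tested.

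Of 10 genes of the nuclear complex, Rbpj and Cir1 rose in both comparisons on their brighter probes, and with IgG 2 fell, where 14.1% of all genes did. These were the coactivator gene Maml2, by -0.59 ± 0.18 (adjusted p = 0.0389), and the corepressor gene Spen, by -0.43 ± 0.13 (adjusted p = 0.0401 in limma). The brighter probe of Rbpj, the DNA-binding protein on which the pathway ends, read 1.64, 1.67 and 1.39 in sham, 2.08, 2.13 and 2.11 with CaCl2, and 2.16, 2.09 and 1.83 with IgG. All CaCl2-treated arrays lay above sham, by 0.54 ± 0.14 (adjusted p = 0.0182) and 0.46 ± 0.14 (adjusted p = 0.0377). The dimmer Rbpj probe read -0.90, -1.18 and -0.38 in sham, -1.47, -1.50 and -1.31 with CaCl2, and -1.72, -1.63 and -0.37 with IgG. On this upstream probe the CaCl2 arrays were the lower ones, by -0.61 ± 0.37, so that the pair of probes differed in sign and the direction for Rbpj depends on the probe.

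Cir1, which encodes a corepressor bound by RBPJ, had the same pattern. Its brighter probe read 0.03, -0.09 and -0.33 in sham, 0.75, 0.63 and 0.57 with CaCl2, and 0.96, 0.86 and 0.46 with IgG, and rose by 0.78 ± 0.17 (adjusted p = 0.00971 in limma) and 0.89 ± 0.17 (adjusted p = 0.00627). Its dimmer probe, with 751 bases between the pair, read -3.03, -3.22 and -2.47 in sham and -3.89, -3.47 and -3.85 with CaCl2, all 3 below sham, a difference of -0.83 ± 0.31. Of the 18 pathway genes with several usable probes, 5 had probes of opposite sign in CaCl2 against sham, some of them at differences near 0. The share among all genes with several probes was not computed, so nothing about this pathway is read from the count. The dimmer probes of Notch2, Rbpj and Cir1 were each lower with CaCl2 than in sham, but Aph1b, a gamma-secretase subunit, read -0.65 on its brightest probe and 0.91 and 0.89 on the others. These genes were singled out after their values were seen.

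**Figure D3:**
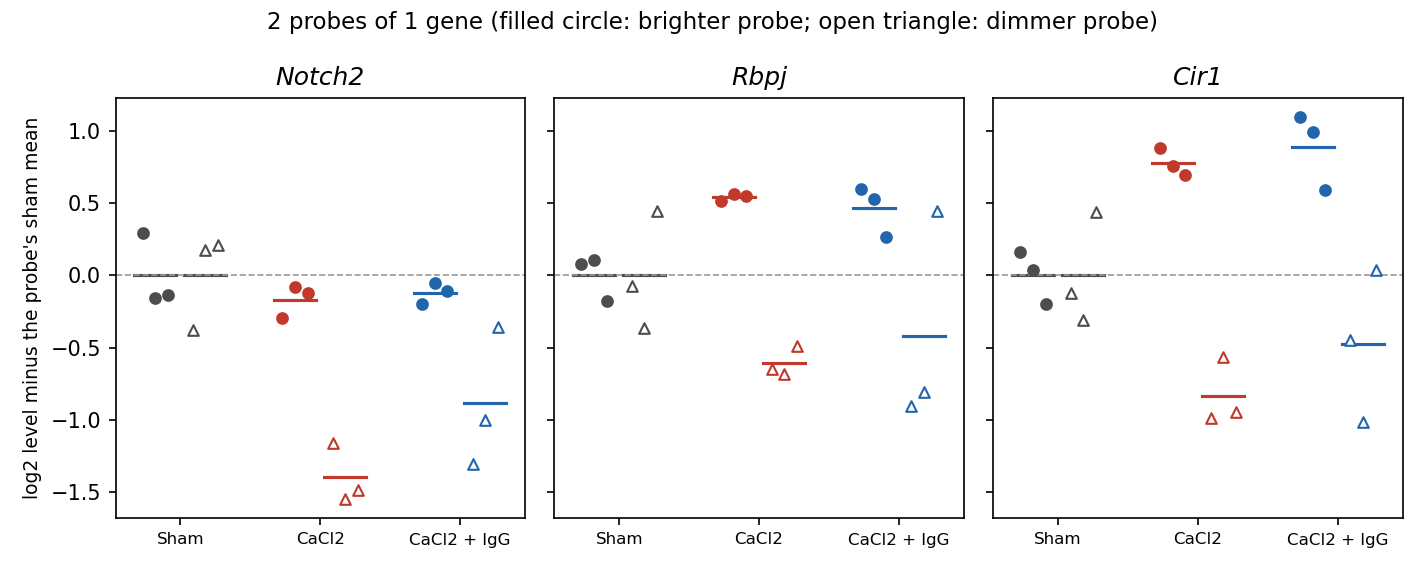
Levels of 2 probes each of Notch2, Rbpj and Cir1, in log2 units relative to the mean of the 3 sham arrays of the same probe. Circles are the brighter probe, triangles the dimmer, and lines the group means. With CaCl2 the dimmer probes stand at -1.40, -0.61 and -0.83, and the brighter ones at -0.17, 0.54 and 0.78.

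Of 11 negative regulators, 2 rose and 1 fell with CaCl2, where 17.3% of all genes rose and 19.1% fell. Dtx4, a Deltex E3 ligase that acts on Notch at the membrane, read 0.46, 0.97 and 0.74 in sham, 2.71, 2.22 and 2.33 with CaCl2, and 1.91, 2.36 and 2.59 with IgG. It was well apart from sham in both groups, by 1.70 ± 0.22 (adjusted p = 0.00134 in limma) and 1.56 ± 0.22 (adjusted p = 0.00203). Dtx3l, a relative also counted among interferon-responsive genes, rose by 0.97 ± 0.27 with CaCl2 (adjusted p = 0.0263), and its 0.74 ± 0.27 with IgG did not pass (adjusted p = 0.0765). Nedd4, a ubiquitin ligase, fell by -0.53 ± 0.15 (adjusted p = 0.0262) and -0.58 ± 0.15 (adjusted p = 0.0214). Nrarp, a feedback inhibitor that Notch itself switches on, read -3.48, -3.35 and -3.90 in sham and -2.54, -3.42 and -3.05 with CaCl2, with overlap and a difference of 0.58 ± 0.46 (adjusted p = 0.350).

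Of 7 further target genes tested, Myc and Ccnd1 rose in both comparisons and 5 did not pass, where 17.3% and 14.6% of all genes rose. Both encode drivers of cell growth and division and are switched on by many pathways besides Notch. Myc read -1.93, -1.89 and -2.21 in sham, 0.11, -0.83 and 0.03 with CaCl2, and -0.46, -0.40 and -1.10 with IgG, a rise of 1.78 ± 0.29 (adjusted p = 0.00290 in limma) and 1.36 ± 0.29 (adjusted p = 0.00996). Ccnd1 rose by 1.17 ± 0.22 (adjusted p = 0.00598) and 1.11 ± 0.22 (adjusted p = 0.00844), without overlap.

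Hes1, the classical target, read -2.73, -2.68 and -2.26 in sham, -1.67, -2.54 and -1.99 with CaCl2, and -1.99, -1.63 and -3.43 with IgG. Its groups overlapped, and the difference of 0.49 ± 0.44 did not pass (adjusted p = 0.411). Hey2, the Hey gene of arteries and their smooth muscle, read 0.13, 0.41 and 0.17 in sham, -0.58, -0.14 and -0.85 with CaCl2, and -0.04, -0.35 and -1.01 with IgG. All 6 lay below sham, as for Heyl, but -0.76 ± 0.27 and -0.70 ± 0.27 did not pass (adjusted p = 0.0580 and 0.0863 in limma). Without replicate 3 of CaCl2 plus IgG, the Hey2 difference with CaCl2 passed at -0.76.

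Dtx4, Myc and Ccnd1 were called in both comparisons under all 20 other settings tried. Adam10 was called under 11 of 20 with CaCl2 and 15 of 20 with IgG, Mfng under 15 in each, Psen2 under 13 and 8, Rbpj under 14 and 7, Cir1 under 19 in each, Adam17 under 7 and 12, and Nedd4 under 12 and 17. Of genes called in 1 comparison, Dtx3l was called under 15 of 20 with CaCl2, and with IgG Neurl1a was called under 12, Maml2 under 7 and Spen under 4.

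**Figure D4:**
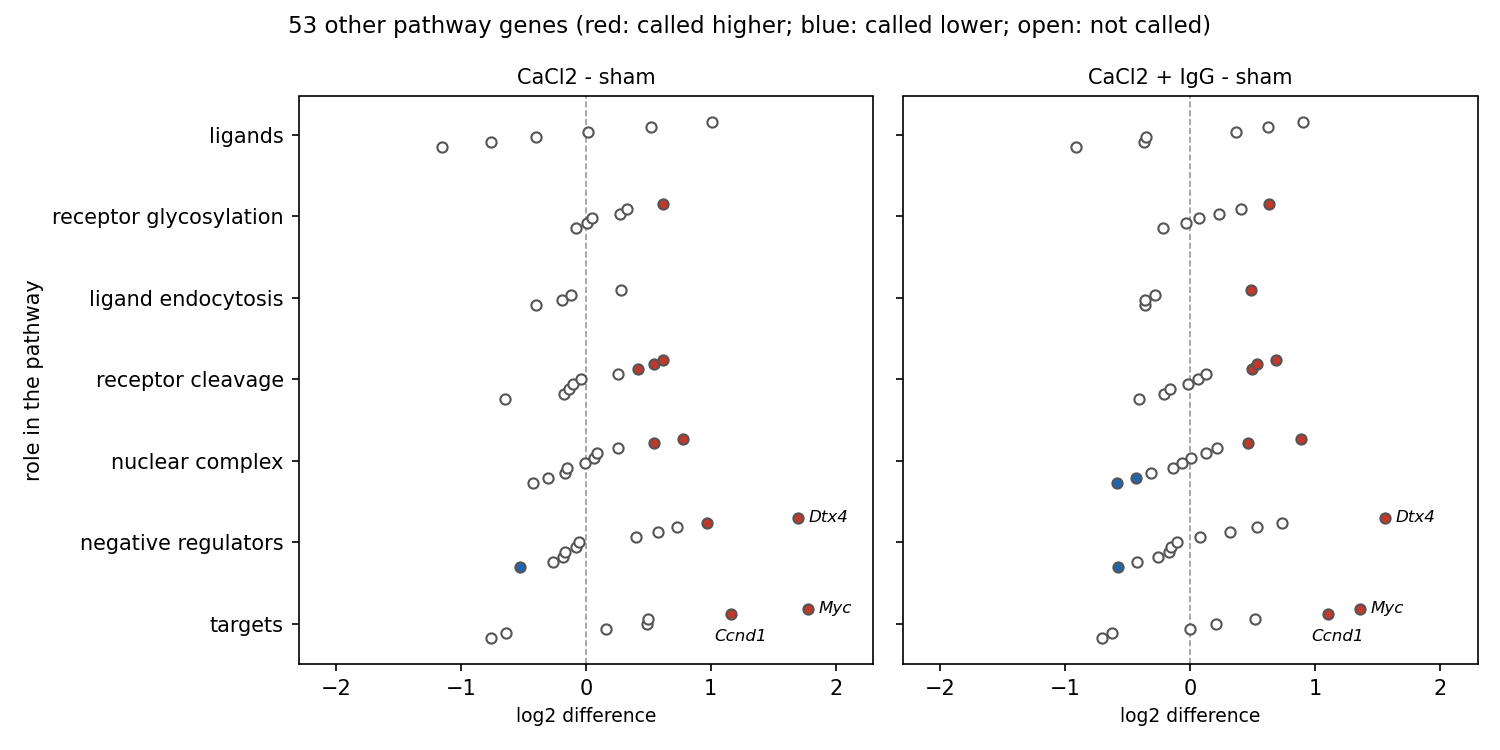
Differences from sham of the 53 other pathway genes tested, in log2 units, by role, for CaCl2 (left) and CaCl2 plus IgG (right). Each point is 1 gene, filled red where it was called higher and blue where called lower at an adjusted p of 0.05. With CaCl2, 10 genes rose and 1 fell, with Myc at 1.78 and Dtx4 at 1.70 the farthest from 0.

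The promoter table of RefSeq genes, of assembly GRCm38.p6, held 8 of the 10 genes and was searched on both strands in windows of 250 bases before to 50 bases after the start of transcription. TGGGAA, the core of the site bound by RBPJ, was in 0 of the 8 and in 25.6% of all 32851 promoters of the table. CACGTG, an E-box that Hey proteins can bind, was also in 0 of the 8 and in 7.15% of all. Hey1 and Heyl were not among the 8.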

How the data were processed

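Total RNA of 9 aortic samples was hybridised to 1-colour Agilent arrays (Cy3), 1 array per sample, in 3 groups of 3 read from the titles. For purification the labels name SV Total RNA Isolation and the design text RNeasy, a conflict left as it is. Spot intensity in the deposited scanner files is linear, background-subtracted with Feature Extraction 10.7.1.1 per the file headers (9.5.1.1 per the submitters' processing notes). The authors' deposited series table holds intensity that follows quantile normalization (its steps: not given in the sources used here) and served as an alternative.

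From the deposited signals log2 levels were computed, less the 75th percentile of their array. Control and outlier spots were left out. A probe was kept if well above background on all 3 arrays of a group, a gene was read by its brightest kept probe, and the gene's name came from accession or symbol in the RefSeq gene list (30816 of 55681 probes). The tests came from limma 3.58.1 (R 4.3.3, with version 1.17.8 of data.table), 9 arrays in 1 fit with no covariate and 6 residual degrees of freedom, with Benjamini-Hochberg adjustment over 16710 genes and a threshold of 0.05. The fit was tested on simulated data. Other scalings, background corrections, filters, probe rules, slide and row terms, a replicate block and leaving out each array were tried; the values within slide rows were added after seeing the data. All columns were mapped to samples.

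The 10 genes and all lists were chosen with earlier results of these data known. Named were all 10 genes, up to 4 called pathway genes per role and comparison by smallest p, Rbpj, Lfng, Adam10, Hes1, Hey2, Nrarp and Dll1 in any case, and the genes nearest to Dner (5), Notch3 (3) and Dll4 (3), leaving out clone names; marker genes named beside them were chosen after their values were seen. The 3 arrays per group limit the precision of every value.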

Additional observations from a re-analysis of the deposited data

How the results depend on the processing

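The direction of Dner was fixed by the choice of the list and is no sign of stability; Dll4 was called under 13 (CaCl2) and 11 (CaCl2 plus IgG) of 20 other settings. Members called in CaCl2 against sham (2) came to 1 with only probes above background on all 9 arrays, which leaves out Dner, and to 1 with the slide row as a block; leaving out 1 array gave 1 to 3. Members called in CaCl2 plus IgG against sham (2) came to 1 with median scaling, normexp, no filter on dim probes, the filter on all 9 arrays and within slide 1; leaving out 1 array gave 1 to 4. Pathway genes called in CaCl2 against sham (11) came to 6 with the row block and 5 within slide 1, and to 5 to 18 leaving out 1 array. Those with IgG against sham (13) came to 4 with median scaling, 8 with no filter and 6 within slide 1, and to 4 to 19 leaving out 1 array. All genes called with CaCl2 (6079) came to 3374 with the row block and 3915 within slide 1, and to 3915 (without sham replicate 3) to 7511 (without replicate 3 of CaCl2 plus IgG) leaving out 1 array, with 3986 without CaCl2 replicate 1. Those with IgG against sham (4785) came to 3020 with median scaling, and to 3003 (without replicate 2 of CaCl2 plus IgG) to 6770 (without replicate 3) leaving out 1 array. Between the CaCl2 groups the count stayed 0 except for 2 genes without replicate 1 of CaCl2 plus IgG. With the mean of the kept probes Rbpj was -0.032 and Cir1 -0.027 in CaCl2 against sham, since their probes differ in sign. Within slide 1 is the same as leaving out sham replicate 3, and the cause of the other shifts was not tested. On slide 1, all CaCl2 arrays were in row 1 and both sham arrays in row 2, while arrays of CaCl2 plus IgG were in both, so the row block rests on those arrays and on sham replicate 3.

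Replicate numbers did not pair the samples (correlations of deviations between same-numbered arrays from -0.20 to 0.22); with the number as a replicate block, 3, 0 and 2 members and 10, 0 and 11 pathway genes were called in CaCl2 against sham, CaCl2 plus IgG against CaCl2 and CaCl2 plus IgG against sham, and 5818, 0 and 4671 of all genes. Dim probes limit what is said of Dner, Dll4, Jag2 and the dimmer Notch2 probe.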
